A study of Mus musculus with 6 samples.

Results

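The solute carriers are the families of membrane transporters whose gene symbols begin with Slc. They were read here in keratinocytes from mouse skin sorted by the surface protein CD34. A gene was taken where a probe of the array that was not a control carried a symbol starting with Slc and a digit, which gave 173 probes for 171 genes. Of these genes, 167 could be tested, among 19993 features tested in all, which are 9349 named genes and 10644 probes without a name. That rule goes by gene symbol and not by a measured value. The keratinocytes came from the skin of mice 7 weeks old, and cells positive for the alpha-6 integrin were sorted into a CD34+ population, called stem and progenitor cells in the labels, and a CD34- population, called basal cells there. Strain, sex and the number of mice behind a replicate are not given in the labels. In mouse skin CD34 is carried by stem cells of the follicle bulge, and the alpha-6 integrin anchors basal keratinocytes to the basement membrane. RNA of the CD34+ and CD34- cells of each of 3 biological replicates was hybridised together on a pair of arrays, the dyes being swapped between them, and n = 3 for every mean.

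Solute carriers move sugars, amino acids, nucleosides, vitamins, metals and ions through the plasma membrane and the membranes of organelles. They do not hydrolyse ATP themselves but run down gradients, couple a solute to an ion that flows down its own gradient, or exchange one solute for another. In skin they supply the dividing basal cells and the follicle with nutrients, and members such as the zinc transporter of acrodermatitis enteropathica and the melanosomal carriers of pigment cells are known from skin and coat disorders. Some genes carry the name without being transporters alone. The Slc3 genes encode heavy chains that bring their Slc7 partners to the surface, and Slc9a3r1 and Slc9a3r2 encode scaffold proteins.

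A change is the log2 of the ratio CD34+ to CD34-, given as the mean of the replicates ± SD, with p-values from limma after Benjamini-Hochberg adjustment over the 19993 features. A gene passed at an adjusted p under 0.05. Intensities are normalised fluorescence values of a probe and can be compared between the populations, not between genes. They include an offset of 50 added before the log, so changes of dim genes are understated. Precision is limited by how few arrays there are. In bulk samples such as these, fewer cells of a type and less RNA per cell cannot be told apart.

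Cd34 itself differed by 5.84 ± 0.43 (SD, n = 3, limma adjusted p 0.00358), higher in CD34+ cells, a check of the labels and dyes rather than a finding. Itga6 was lower in CD34+ cells, at -0.79 ± 0.16 on its tested probe (adjusted p 0.0178). On each array and channel 92.9% to 97.7% of probes were marked as well above background, and 154 of the 167 tested solute carriers did so in both populations on all 6 arrays. The arrays of a replicate with exchanged dyes correlated over all features with r of 0.859, 0.910 and 0.674 in replicates 1, 2 and 3. The arrays of replicate 3 were read with another version of the scanner software than those of replicates 1 and 2. Of the basal keratinocyte markers, Trp63 stood at 0.05 ± 0.28 and did not pass, and Col17a1 rose by 0.67 ± 0.14 in CD34+ cells, while Krt5, Krt14 and Itgb4 were not analysed here.

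Most solute carriers did not pass the test, and those that did were divided between the populations. In CD34+ cells 11 of 167 were higher (6.59%) and 14 were lower (8.38%). Over all features tested, 5.46% were higher and 6.69% lower. The shares among the solute carriers were thus near that background. The median change of the 167 genes was 0.027, against 0.0040 over all features. The 12 that passed with a change of at least 0.5 in size carry solutes of many kinds. The lower ones were Slc22a4, Slc6a4, Slc2a5, Slc16a9, Slc16a3, Slc4a8 and Slc25a3, carriers of organic cations, serotonin, fructose, monocarboxylates, bicarbonate and phosphate. The higher ones were Slc6a6, Slc29a1, Slc7a8, Slc50a1 and Slc19a1, carriers of taurine, nucleosides, neutral amino acids, sugars and folate. Only 5 of the 25 changed at least 2-fold. Of these, Slc22a4, Slc6a4, Slc2a5 and Slc16a9 fell and Slc6a6 rose. All 25 had the same sign on each of the 6 arrays, which the test itself favours, as it selects genes whose replicates agree. Among the 142 that did not pass, 126 had a mean change smaller than 0.25 in size.

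**Figure D1:**
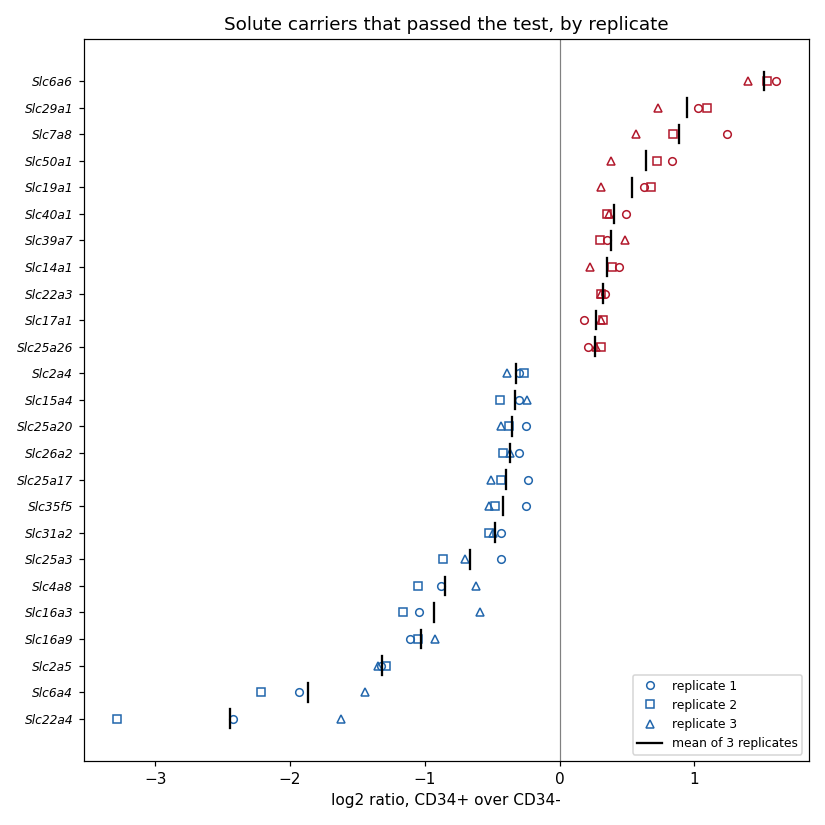
Log2 ratio of CD34+ over CD34- cells (x axis) for the 25 solute carriers that passed the test (rows), with a marker for each of 3 replicates and a black bar for their mean. No replicate of any of these genes crosses 0, and Slc22a4 is the most spread, at -2.42, -3.28 and -1.63 in replicates 1, 2 and 3.

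The calls depended on replicate 1 and, for most genes, on replicate 2. Without replicate 1, 0 of the 25 genes passed and 0 of all features did by limma, while 38 solute carriers and 4627 features had an unadjusted p under 0.05. The 25 genes kept their direction there, with adjusted p-values between 0.0885 and 0.162. Without replicate 2, 1 solute carrier was called higher and 4 were called lower. These were Slc6a6, Slc22a4, Slc6a4, Slc2a5 and Slc16a9. Without replicate 3, whose arrays had the other software version, 20 were called higher and 22 lower, 24 of the 25 among them, Slc17a1 being the exception. A term for the software version fits an effect to replicate 3, so the spread then comes from replicates 1 and 2 only. The software version cannot be told apart from any other difference between replicate 3 and the rest. Replicate 3 alone allows no test. Across the 167 genes the changes of replicates 1 and 2 correlated with r = 0.947, those of replicates 1 and 3 with r = 0.749 and those of replicates 2 and 3 with r = 0.801. These are correlations across genes, which are not independent replicates.

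Organic cation and anion carriers gave the largest change of any solute carrier, in a single gene. Slc22a4, the carrier OCTN1, takes up ergothioneine and other organic cations. Its intensity was 279, 144 and 437 in CD34+ cells of replicates 1, 2 and 3, against 1495, 1407 and 1347 in CD34- cells. Every CD34+ value lay below every CD34- value, and the CD34+ values spread more than the CD34- values. The change was -2.44 ± 0.83 (SD, n = 3, limma adjusted p 0.0260), a 5.44-fold lower level. In the annotation of GRCm38.p6 Slc22a4 lies on chromosome 11 beside its relatives Slc22a21 and Slc22a5, the carnitine transporter OCTN2, with Pdlim4 on its other side. Slc22a5 stood at 0.12 ± 0.06 (adjusted p 0.184) and Slc22a21 at 0.00056 ± 0.062 (adjusted p 0.995), so neither neighbour of the family passed.

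Slc22a3, the cation transporter OCT3, was the other member of this group that passed. Its intensity was 361, 534 and 663 in CD34+ cells, against 285, 431 and 535 in CD34- cells. The ranges overlap between the populations, yet within each replicate the CD34+ value was the higher by nearly the same factor, at 0.32 ± 0.02 (SD, n = 3, adjusted p 0.0257). With CD34+ in Cy3 only, that change was 0.18 with an adjusted p of 0.0867. In this group 1 of 15 genes was thus higher (6.67%) and 1 lower (6.67%), against 5.46% and 6.69% over all features. The remaining 13 of 15 did not pass and lay between -0.07 and 0.36. At the upper end stood Slc22a12, the urate exchanger URAT1, at 0.36 ± 0.22 (adjusted p 0.0883), and Slc22a2, the cation transporter OCT2, at 0.20 ± 0.05 (adjusted p 0.0712). The imprinted gene Slc22a18 had replicate values of 0.51, 0.53 and -1.03 and a mean of 0.0022 ± 0.90. The value of replicate 3 rests on a single array, for its arrays gave -2.14 with CD34+ in Cy5 and 0.08 with CD34+ in Cy3, and Slc22a18 was higher in CD34+ cells on 5 of 6 arrays.

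The bases upstream of the start site are shown for the solute carriers that changed at least 2-fold, to set the genes of the largest changes beside their own promoters. They were found for 4 of the 5, all lower in CD34+ cells; Slc6a6 is named only. Each line gives 250 bases before the start, 5′ to 3′ on the strand of the gene, from RefSeq on build GRCm38.p6. Capitals mark the GC box, GGGCGG, and the E-box, CACGTG, found on either strand. The positions are chr11:54028105-54028354 on the minus strand for Slc22a4, and on the plus strand chr11:76998347-76998596 for Slc6a4, chr4:150119094-150119343 for Slc2a5 and chr10:70245026-70245275 for Slc16a9.
Slc22a4: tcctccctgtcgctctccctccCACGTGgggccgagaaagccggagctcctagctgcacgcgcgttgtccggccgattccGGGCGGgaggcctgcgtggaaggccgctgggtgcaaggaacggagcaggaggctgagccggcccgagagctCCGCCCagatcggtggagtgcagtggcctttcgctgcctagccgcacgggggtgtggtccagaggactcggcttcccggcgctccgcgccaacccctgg
Slc6a4: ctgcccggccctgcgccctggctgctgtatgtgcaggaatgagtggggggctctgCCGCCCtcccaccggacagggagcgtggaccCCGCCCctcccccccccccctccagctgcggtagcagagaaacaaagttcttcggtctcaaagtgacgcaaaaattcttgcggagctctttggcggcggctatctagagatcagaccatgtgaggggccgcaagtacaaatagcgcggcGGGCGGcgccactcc
Slc2a5: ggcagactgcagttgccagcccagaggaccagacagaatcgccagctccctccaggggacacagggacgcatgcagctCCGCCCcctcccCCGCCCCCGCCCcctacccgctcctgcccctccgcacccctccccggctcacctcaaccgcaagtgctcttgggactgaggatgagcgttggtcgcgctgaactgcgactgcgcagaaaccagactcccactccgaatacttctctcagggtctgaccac
Slc16a9: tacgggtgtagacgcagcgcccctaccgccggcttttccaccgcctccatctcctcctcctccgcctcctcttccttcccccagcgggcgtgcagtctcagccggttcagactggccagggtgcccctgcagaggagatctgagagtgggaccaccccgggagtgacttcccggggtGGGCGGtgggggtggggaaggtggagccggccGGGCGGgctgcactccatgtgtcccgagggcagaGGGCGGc
All 4 are rich in G and C, at 71.2% for Slc22a4, 64.8% for Slc6a4, 66.4% for Slc2a5 and 70.4% for Slc16a9, against a median of 52.4% over 32536 windows of the same length. The GC box occurred 2 times in Slc22a4 and 3 times in each of the other promoters shown, and 33.0% of all windows held it. The E-box occurred once, in Slc22a4, and in 6.04% of all windows. The letters of the TATA box (TATAAA, in 12.3% of all windows), the CCAAT box (33.8%), the AP-1 site (TGANTCA, 6.73%) and the core of the antioxidant response element (TGACNNNGC, 10.2%) occurred in none of these windows, on either strand. A match describes the letters and does not show a bound site. The windows of other solute carriers were not compared, and the shares over all windows are not matched for G and C content.

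**Figure D2:**
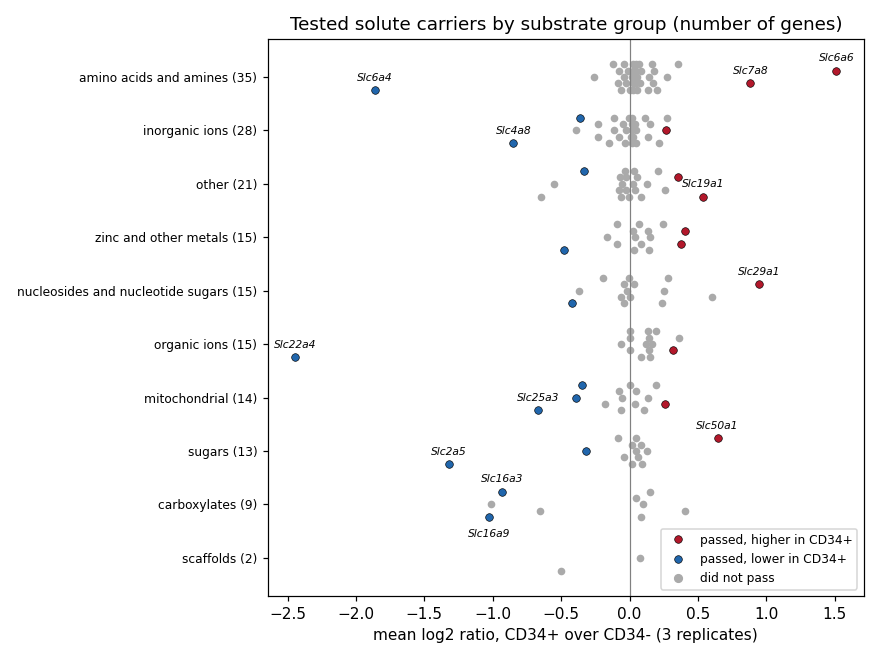
Mean log2 ratio of CD34+ over CD34- cells over 3 replicates (x axis) for the 167 tested solute carriers, in rows by substrate group with the number of genes, red for genes that passed and were higher, blue for those that passed and were lower, grey for the rest. Each group of 9 or more genes holds at least 1 gene that passed, and most genes lie close to 0.

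Amino acid and amine carriers, 35 genes, included the largest rise and the second largest fall among the solute carriers. Of the 35, 2 were higher (5.71%) and 1 lower (2.86%), against 5.46% and 6.69% over all features. Slc6a6, which takes up taurine with sodium and chloride, had intensities of 1099, 936 and 1626 in CD34+ cells, against 362, 322 and 617 in CD34- cells. All CD34+ values lay above all CD34- values, and the replicates agreed closely in ratio although replicate 3 was brighter in both populations. Slc6a6 rose by 1.51 ± 0.10 (SD, n = 3, limma adjusted p 0.00585), a 2.85-fold higher level. Slc7a8, the light chain LAT2 of an exchanger of neutral amino acids, had 552, 570 and 290 in CD34+ cells, against 233, 318 and 196 in CD34- cells. Here the replicate 3 value of CD34+ cells fell below the replicate 2 value of CD34- cells, so the ranges overlap. The change was 0.88 ± 0.34 (adjusted p 0.0339), and the replicates ranged between 0.56 and 1.24.

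Slc6a4, the serotonin transporter, fell in CD34+ cells. Its intensity was 252, 194 and 239 in CD34+ cells, against 963, 902 and 649 in CD34- cells, without overlap. The change was -1.86 ± 0.39 (SD, n = 3, adjusted p 0.0152), a 3.64-fold lower level. Its relatives for noradrenaline and dopamine, Slc6a2 and Slc6a3, stood at -0.03 ± 0.03 and 0.02 ± 0.07 and did not pass. The probe of Slc6a2 was well above background on only 2 of 6 arrays in CD34+ cells and 3 of 6 in CD34- cells. Its value therefore says little about a difference. In the Slc6 family 10 genes were tested, of which Slc6a6 was higher and Slc6a4 lower, against 5.46% and 6.69% over all features.

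The other 32 amino acid and amine carriers did not pass and lay between -0.26 and 0.35. Slc3a2, the heavy chain that pairs with Slc7a8 and with several other light chains, stood at 0.17 ± 0.08 (adjusted p 0.124). Slc7a5, the light chain LAT1, another partner of Slc3a2, was at -0.26 ± 0.20 (adjusted p 0.151) and thus of the opposite sign to Slc7a8. With median centring in place of loess Slc7a5 was at -0.34 with an adjusted p of 0.0404. Slc7a11, the light chain of the cystine and glutamate exchanger, was at -0.01 ± 0.07, and Slc1a5, a glutamine carrier, at 0.05 ± 0.05. The largest changes that did not pass were those of Slc38a4, a sodium-coupled carrier of neutral amino acids, at 0.35 ± 0.26 (adjusted p 0.126), and Slc1a6, a glutamate transporter, at 0.27 ± 0.14 (adjusted p 0.0856). Slc6a9, which carries glycine, and Slc6a8, which carries creatine, were at 0.14 ± 0.07 and 0.20 ± 0.09, and neither passed.

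**Figure D3:**
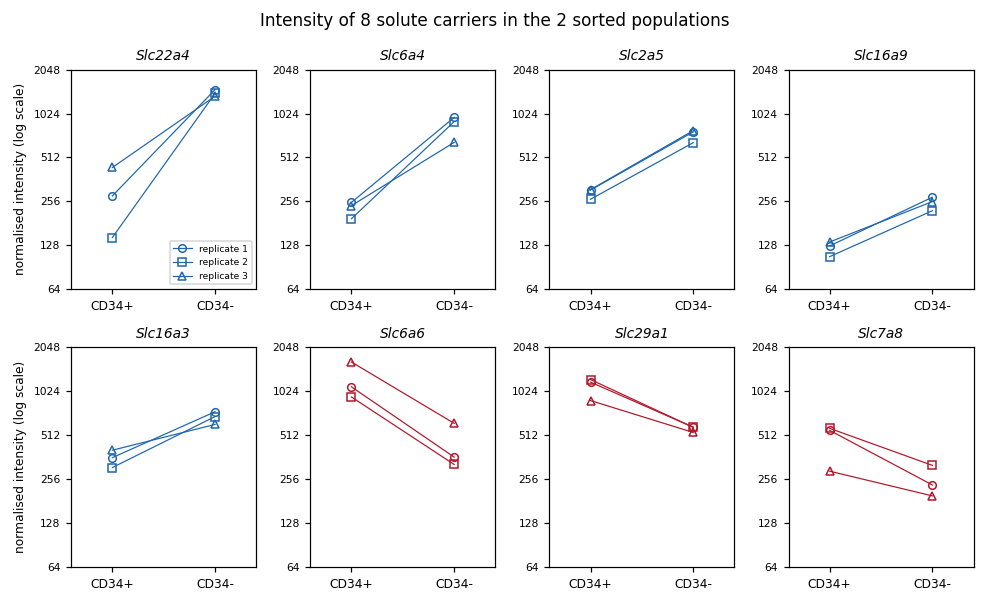
Normalised intensity (y axis, log scale) of 8 solute carriers in CD34+ cells (left) and CD34- cells (right), with a marker for each of 3 replicates and a line joining the populations of a replicate. All lines of Slc22a4, Slc6a4, Slc2a5, Slc16a9 and Slc16a3 run lower on the CD34+ side, and all lines of Slc6a6, Slc29a1 and Slc7a8 run higher there, by 0.88 ± 0.34 for Slc7a8, the gene whose populations overlap.

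Sugar carriers fell at the fructose transporter and rose at a sugar carrier of another family. Of 13 tested, 1 was higher (7.69%) and 2 were lower (15.4%), against 5.46% and 6.69% over all features. Slc2a5, the fructose transporter GLUT5, had 306, 264 and 308 in CD34+ cells, against 767, 647 and 783 in CD34- cells. The populations did not overlap, and the ratio was nearly the same in each replicate. The change was -1.32 ± 0.03 (SD, n = 3, limma adjusted p 0.00447), a 2.50-fold lower level. Slc2a4, the insulin-responsive glucose transporter GLUT4, had 202, 180 and 158 in CD34+ cells, against 250, 217 and 208 in CD34- cells, and fell by 0.32 ± 0.06 (adjusted p 0.0315). Its populations did not overlap either. Slc50a1, the only SWEET-type sugar carrier of mammals, had 761, 664 and 450 in CD34+ cells, against 427, 403 and 347 in CD34- cells. It rose by 0.64 ± 0.24 (adjusted p 0.0336), with the smallest replicate value, 0.38, in replicate 3.

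The other 10 sugar carriers did not pass, and all lay between -0.09 and 0.12. The glucose transporter Slc2a3 (GLUT3) was at 0.05 ± 0.24 with replicates of both signs, and Slc2a2 (GLUT2) and Slc5a1, a sodium-coupled glucose transporter, had the largest changes of these, at 0.12 ± 0.03 and 0.09 ± 0.01. Slc2a1 (GLUT1), the main glucose transporter of keratinocytes, was not analysed here. Hk2, the hexokinase that phosphorylates glucose after entry, was higher in CD34+ cells by 1.02 ± 0.10 (adjusted p 0.00886), and Hk1 stood at -0.25 ± 0.19 (adjusted p 0.148).

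Carriers of carboxylates passed in 2 of 9 cases, 0 higher and 2 lower (22.2%), against 5.46% and 6.69% over all features. The median size of the change over the 9 genes was 0.41, against 0.089 over all solute carriers and 0.10 over all features. That size disregards direction, for the gene at the median was Slc16a7, which was higher in CD34+ cells and did not pass. Slc16a3, the lactate transporter MCT4 of glycolytic cells, had 359, 307 and 404 in CD34+ cells, against 741, 687 and 607 in CD34- cells. It fell by 0.93 ± 0.30 (SD, n = 3, limma adjusted p 0.0262) with no overlap. Slc16a9, the family member MCT9, had 127, 107 and 135 in CD34+ cells, against 273, 221 and 255 in CD34- cells, again with no overlap. It fell by 1.03 ± 0.10 (adjusted p 0.00886), a 2.04-fold lower level. On the deposited log ratios, which carry no offset, the change of Slc16a9 was -1.54.

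Of the 6 Slc16 genes tested, 4 were lower in CD34+ cells in all 3 replicates, of which 2 passed, and 2 were higher in all 3. Over the 167 solute carriers, 44 were lower and 61 higher in all 3 replicates. Slc16a6, the member MCT7, had 215, 142 and 315 in CD34+ cells, against 413, 424 and 453 in CD34- cells, a change of -1.01 ± 0.53 that did not pass (adjusted p 0.0558). Slc16a1, the lactate and pyruvate transporter MCT1, had 256, 142 and 260 in CD34+ cells, against 382, 337 and 287 in CD34- cells, a change of -0.65 ± 0.55 (adjusted p 0.142). For Slc16a1 the replicates stood far apart, at -0.57, -1.24 and -0.14. Without replicate 3 its change was -0.91 with an adjusted p of 0.0385. Slc16a7, the transporter MCT2, ran the other way at 0.41 ± 0.25 (adjusted p 0.0891). The 3 Slc13 genes, carriers of dicarboxylates and sulfate, lay between 0.08 and 0.15 and did not pass. Emb, embigin, which brings monocarboxylate transporters to the cell surface, was higher in CD34+ cells by 1.43 ± 0.43 (adjusted p 0.0225). Its sign was opposite to that of the Slc16 genes that passed and the same as that of Slc16a7, which did not pass. Bsg, also on the list of partners, was not analysed here.

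Carriers of nucleosides rose at the main equilibrative transporter. Slc29a1 (ENT1), which lets nucleosides equilibrate across the plasma membrane, had 1183, 1233 and 884 in CD34+ cells, against 580, 579 and 534 in CD34- cells, with no overlap. It rose by 0.95 ± 0.19 (SD, n = 3, limma adjusted p 0.0171). Its relatives Slc29a2, Slc29a3 and Slc29a4 lay between -0.19 and 0.03 and did not pass. Among the nucleotide sugar family, Slc35f5, whose substrate is not settled, had 323, 256 and 273 in CD34+ cells, against 384, 358 and 393 in CD34- cells, and fell by 0.42 ± 0.15 (adjusted p 0.0388). Slc35e3, another member without a settled substrate, showed a larger change that did not pass. It had 1545, 1331 and 1220 in CD34+ cells, against 816, 804 and 1092 in CD34- cells, a change of 0.60 ± 0.40 (adjusted p 0.0911). Replicate 3 contributed only 0.16 to that mean, against 0.92 and 0.73 in replicates 1 and 2. Slc35b1 was at -0.37 ± 0.24 (adjusted p 0.0974). In all, 1 of 15 genes for nucleosides and nucleotide sugars was higher (6.67%) and 1 lower (6.67%), against 5.46% and 6.69% over all features.

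Carriers of inorganic ions passed in 3 of 28 cases, 1 higher (3.57%) and 2 lower (7.14%), against 5.46% and 6.69% over all features. Slc4a8, a sodium-driven exchanger of chloride for bicarbonate, had 105, 94.0 and 180 in CD34+ cells, against 193, 195 and 277 in CD34- cells. No CD34+ value reached the CD34- values. Slc4a8 fell by 0.85 ± 0.22 (SD, n = 3, limma adjusted p 0.0206), with -1.39 on the deposited log ratios, which carry no offset. Slc26a2, the sulfate transporter, had 118, 105 and 127 in CD34+ cells, against 145, 141 and 164 in CD34- cells. It fell by 0.36 ± 0.06 (adjusted p 0.0251), with -0.62 on the deposited log ratios. Slc17a1, a carrier of phosphate and urate, rose by 0.27 ± 0.08 (adjusted p 0.0485), with overlapping populations. It was the gene closest to the threshold.

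Among the 25 ion carriers that did not pass, 23 had changes smaller than 0.25 in size. Slc12a2, the sodium, potassium and chloride cotransporter NKCC1, was at -0.39 ± 0.30 (adjusted p 0.128), with replicates at -0.52, -0.59 and -0.05. Without replicate 3, whose change was the smallest, Slc12a2 was at -0.56 with an adjusted p of 0.00797. Stk39, the kinase SPAK that activates NKCC1, was lower in CD34+ cells, at -0.53 ± 0.12 (adjusted p 0.0215). The scaffold gene Slc9a3r1 was at -0.50 ± 0.24 (adjusted p 0.0567), with -1.15 on the deposited log ratios (adjusted p 0.0452), and Slc9a3r2 at 0.08 ± 0.05. Slc4a4 had a second probe at -0.03 ± 0.04, against 0.22 ± 0.29 for the brighter probe used.

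Carriers of the Slc25 family, which sit mostly in the inner membrane of mitochondria, Slc25a17 being peroxisomal, passed in 4 of 14 cases, 1 higher (7.14%) and 3 lower (21.4%), against 5.46% and 6.69% over all features. Slc25a3, which brings phosphate into the matrix for ATP synthesis, had 1551, 1183 and 915 in CD34+ cells, against 2098, 2160 and 1486 in CD34- cells. Replicate 3 was dimmer in both populations and the ranges overlapped, while each replicate's CD34+ value was the lower. Slc25a3 fell by 0.67 ± 0.22 (SD, n = 3, limma adjusted p 0.0285). Slc25a20, which carries acylcarnitines for fatty acid oxidation, had 192, 187 and 156 in CD34+ cells, against 227, 242 and 211 in CD34- cells, and fell by 0.35 ± 0.09 (adjusted p 0.0342). Slc25a17, the peroxisomal carrier of nucleotide cofactors, fell by 0.39 ± 0.14 on its brighter probe (adjusted p 0.0404), and its second probe gave -0.64 ± 0.38. On the deposited log ratios Slc25a17 did not pass (adjusted p 0.0513).

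Slc25a26, which brings S-adenosylmethionine into mitochondria, rose by 0.26 ± 0.05 (adjusted p 0.0409). It had 560, 774 and 464 in CD34+ cells, against 485, 624 and 384 in CD34- cells, so that the rise shows within replicates and the ranges overlap. On the deposited log ratios its adjusted p was 0.0725. The remaining 10 Slc25 genes lay between -0.18 and 0.19. Slc25a37, the mitochondrial iron importer mitoferrin 1, was at 0.19 ± 0.08 (adjusted p 0.0994), and Slc25a39 was at -0.18 ± 0.08 (adjusted p 0.107). The ADP and ATP exchangers Slc25a4 and Slc25a5 were not analysed here.

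Metal carriers passed in 3 of 15 cases, each for another metal, 2 higher (13.3%) and 1 lower (6.67%), against 5.46% and 6.69% over all features. Slc40a1, ferroportin, the iron exporter, had 193, 168 and 262 in CD34+ cells, against 137, 131 and 203 in CD34- cells, and the ranges overlap. It rose by 0.40 ± 0.08 (SD, n = 3, limma adjusted p 0.0244), and the deposited log ratios gave 0.61. With CD34+ in Cy3 only, the change was 0.24 and did not pass (adjusted p 0.0652). Slc39a7 (ZIP7), which releases zinc out of the endoplasmic reticulum, had 2027, 2079 and 2564 in CD34+ cells, against 1591, 1689 and 1829 in CD34- cells. It rose by 0.38 ± 0.10 (adjusted p 0.0306) without overlap.

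Slc31a2, a copper carrier related to the uptake transporter CTR1, had 582, 595 and 717 in CD34+ cells, against 786, 854 and 1009 in CD34- cells. It fell by 0.48 ± 0.05 (adjusted p 0.0176), also without overlap. None of the 6 Slc30 genes, which move zinc out of the cytosol, passed, and they lay between -0.09 and 0.14, with Slc30a1 at 0.07 ± 0.10. Slc39a4, the zinc importer mutated in acrodermatitis enteropathica, was at 0.15 ± 0.06 (adjusted p 0.128). Slc39a8 had the largest change of the metal carriers that did not pass, at 0.24 ± 0.24, with 0.91 on the deposited log ratios. Slc11a2, the divalent metal transporter DMT1, was at -0.16 ± 0.09 (adjusted p 0.134). The iron genes Tfrc and Trf, the transferrin receptor and transferrin, stood at -0.07 ± 0.06 and 0.03 ± 0.05 and did not pass. The probe of Tfrc was dim, well above background on 5 of 6 arrays in CD34+ cells.

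The remaining 21 genes carry vitamins, peptides, urea, fatty acids and other solutes. Among them 2 were higher (9.52%) and 1 lower (4.76%), against 5.46% and 6.69% over all features. Slc19a1, the reduced folate carrier, had 305, 280 and 286 in CD34+ cells, against 198, 175 and 231 in CD34- cells, with no overlap. It rose by 0.54 ± 0.20 (SD, n = 3, limma adjusted p 0.0365). Its relative Slc19a2, a thiamine transporter, had 389, 343 and 454 in CD34+ cells, against 594, 597 and 537 in CD34- cells, a change of -0.55 ± 0.28 in the opposite direction that did not pass (adjusted p 0.0605). Slc52a3, a riboflavin transporter, had 327, 200.2 and 372 in CD34+ cells, against 480, 406 and 477 in CD34- cells, and a change of -0.64 ± 0.34 (adjusted p 0.0605). The vitamin carriers thus had changes of both signs, of which that of folate passed.

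Slc14a1, the urea transporter UT-B, had 104, 97.0 and 108 in CD34+ cells, against 76.2, 74.1 and 92.4 in CD34- cells, and was well above background on 5 of 6 arrays in CD34- cells. Slc14a1 rose by 0.35 ± 0.11 (adjusted p 0.0396), with 1.00 on the deposited log ratios. Slc15a4, a lysosomal carrier of histidine and peptides, had 473, 432 and 287 in CD34+ cells, against 583, 588 and 341 in CD34- cells. Slc15a4 fell by 0.33 ± 0.10 (adjusted p 0.0406), with overlapping populations, and did not pass on the deposited log ratios (adjusted p 0.0512). Slc46a2, at 0.26 ± 0.10 (adjusted p 0.0657), was another dim gene with a larger value on the deposited log ratios, at 1.21. Slc45a2, a melanosomal carrier of pigment cells, was at 0.03 ± 0.06, on a dim probe well above background on 5 of 6 arrays in CD34- cells.

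**Figure D4:**
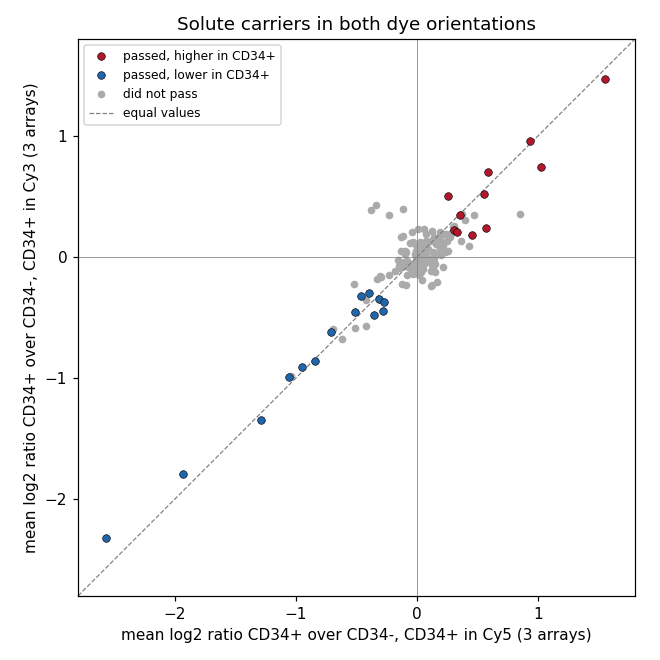
Mean log2 ratio of CD34+ over CD34- cells on the 3 arrays with CD34+ in Cy5 (x axis) and on the 3 arrays with CD34+ in Cy3 (y axis) for the 167 tested solute carriers, in red and blue where they passed, with a dashed line of equal values. The genes that passed lie near the line, with a largest gap of 0.33 between the orientations.

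The dye orientations gave closely similar values for the genes with large changes. Over the 25 that passed, the gap between the means of the orientations had a median size of 0.097 and reached at most 0.33, and over all 167 genes the median size was 0.095. The largest gap is of the order of the smaller changes that passed. With CD34+ in Cy5 only, 19 of the 25 still passed, and with CD34+ in Cy3 only, 18 did.

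Transporters outside the solute carriers were counted for comparison, without a test of the difference. Of 52 genes of ABC transporters, Slco carriers, aquaporins and P-type ATPases, 3 were higher (5.77%) and 9 lower (17.3%) in CD34+ cells, against 5.46% and 6.69% over all features. All 6 ABC transporters that passed, of 26 tested, were lower, among them Abcg1, a cholesterol exporter, at -1.18 ± 0.13 (limma adjusted p 0.00886), and Abcc1, an exporter of glutathione conjugates, at -0.86 ± 0.18 (adjusted p 0.0176). Slco3a1, an organic anion carrier whose protein also belongs to the wider solute carrier superfamily, was lower in CD34+ cells, at -1.42 ± 0.52 (adjusted p 0.0297). Aqp3, the water and glycerol channel of basal keratinocytes, was higher by 2.13 ± 0.36 (adjusted p 0.0119), a larger change than that of any solute carrier that rose. Atp1b1 and Atp1b3, beta subunits of the sodium pump, whose gradient drives the sodium-coupled solute carriers, were lower, at -1.28 ± 0.35 and -0.83 ± 0.18 (adjusted p 0.0207 and 0.0183). Their relatives Atp1b2 and Atp1b4 stood at -0.02 ± 0.03 and 0.08 ± 0.07 and did not pass. Genes of the catalytic subunits of the pump (Atp1a) were not among the named genes tested. The other P-type ATPases that passed were higher: Atp8a2 and Atp8a1, flippases that move phospholipids across membranes, at 1.83 ± 0.36 and 1.00 ± 0.22 (adjusted p 0.0143 and 0.0176).

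Of 23 tested partners and regulators of solute carriers, 2 were higher (8.70%) and 2 lower (8.70%), against 5.46% and 6.69% over all features. These were Emb and Hk2 on the one side, and Stk39 and Atf4 on the other. Atf4, which drives genes of amino acid uptake under amino acid shortage, was at -0.44 ± 0.08 (limma adjusted p 0.0211). Ezr, which links the Slc9a3r scaffolds to actin, was at -0.96 ± 0.60 (adjusted p 0.0801), and the zinc-binding metallothionein Mt1 at -0.60 ± 0.51 (adjusted p 0.144), so neither passed.

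Markers of other cells that a sort of skin could hold moved for some genes, beside 5.46% higher and 6.69% lower over all features. Of 7 melanocyte markers Dct and Mitf were higher in CD34+ cells, by 0.79 ± 0.29 and 0.99 ± 0.31, while Tyr, Tyrp1, Pmel, Kit and Oca2 did not pass. For Mitf the ranges overlap, and the arrays of replicate 3 gave 0.35 with CD34+ in Cy5 and 1.24 with CD34+ in Cy3. The probes of Tyr, Tyrp1, Oca2 and Kit were dim, with mean intensities of 86, 86, 99 and 106 in CD34+ cells, offset included. Their values therefore say little about a difference. The summed intensity of the melanocyte list ranged over 922 to 1377 in CD34+ cells and 737 to 1036 in CD34- cells. Of 3 fibroblast markers Col1a2 was higher, by 1.02 ± 0.11, with sums of 581 to 911 in CD34+ cells and 401 to 524 in CD34- cells, while Dcn and Pdgfra did not pass. Of 3 Langerhans cell markers Tyrobp was lower, at -0.24 ± 0.05, with overlapping ranges. Its probe was dim, well above background on 4 of 6 arrays in CD34+ cells. H2-Ab1 and Epcam, the other Langerhans cell markers, did not pass. The sums of this list were 3423 to 4540 in CD34+ cells and 3152 to 3984 in CD34- cells, and nearly all of that is the probe of Epcam, a gene that epithelial cells also express, at 3240 to 4244 in CD34+ cells and 2893 to 3627 in CD34- cells. No marker of T cells (5 tested), endothelium (5), red cells (3) or sebocytes (5) passed. The T cell marker Cd3d stood at 0.26 ± 0.08 (limma adjusted p 0.0509) and the endothelial marker Emcn at 0.41 ± 0.24 (adjusted p 0.0820). On the deposited log ratios, which carry no offset, both passed and were higher in CD34+ cells, at 0.52 and 0.67 (limma adjusted p 0.0426 and 0.0357). Sums for T cells were 2501 to 3293 in CD34+ cells and 1960 to 2913 in CD34- cells, for endothelium 553 to 797 in CD34+ cells and 529 to 684 in CD34- cells. For red cells they were 1614 to 2834 in CD34+ cells and 1402 to 2010 in CD34- cells, and for sebocytes 1741 to 2512 in CD34+ cells and 1854 to 2216 in CD34- cells. Most of the T cell sum is the probe of Cd3e, at 1711 to 2742 in CD34+ cells and 1294 to 2376 in CD34- cells. Most of the red cell sum is that of Hba-a1, at 1392 to 2485 in CD34+ cells and 1173 to 1669 in CD34- cells. The red cell list holds the solute carrier Slc4a1, the anion exchanger of red cells, which was at 0.02 ± 0.07. The part of these cells in the changes of the solute carriers was not tested.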

How the data were processed

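Gene expression was measured on 2-colour Agilent arrays with 21318 features that are not controls. The deposited files give the mean and background intensity of each spot, read with Agilent Feature Extraction, in an older version for replicate 3 than for replicates 1 and 2 per the file headers, although the labels name a single version. They also give log10 ratios of Cy5 over Cy3, computed by that software after background subtraction and dye normalisation, per the file headers. The series' deposited table equals the negative of these log10 ratios (largest difference 0, column medians 0 to 0.00274). The labels number replicates 1 and 2, and the remaining arrays were taken as replicate 3. Beside the number, the labels of replicates 1 and 2 carry what reads as a date, which those of replicate 3 lack.

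Intensities were corrected with normexp (offset 50) and normalised by loess within arrays in limma 3.58.1 (R 4.3.3), with control and outlier spots at weight 0. Signs were turned to CD34+ over CD34-, and the 2 arrays of a replicate were averaged. A probe was kept when at least 2 of 3 replicates had it well above background in the same population: 472 of 20868 were left out as dim and 182 for an outlier mark, among them the probes of Slc10a2, Slc12a8 and Slc26a3 (dim) and Slc16a8 (outlier mark). A gene was taken by its brightest probe and tested against 0 with lmFit and eBayes. The procedure was also run on simulated data with the same noise in every replicate. That setting does not cover the lower agreement of replicate 3. Per population, intensities were taken after Aquantile normalisation.

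Names came from accessions in RefSeq's GRCm38.p6 table for 164 of the 173 solute carrier probes, and from symbols or synonyms in the deposited description for 5 and 4. Upstream sequences are RefSeq's, with entries for 124 of the 167 tested genes. The populations of a replicate lie on the same array per the labels, so the ratio pairs them; their deviations from the population means correlated with r of 0.798, 0.716 and 0.811 in replicates 1, 2 and 3, which share their spots.

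Named genes were the passing solute carriers, with replicate values for changes of at least 0.5, the 2 largest changes that did not pass in each substrate group, and a list of members known in skin; a few genes that this rule names are not reported here. The members, lists and rules were chosen with earlier results of these data known. The labels call the replicates biological without naming the animals, and p-values measure the spread between these samples. Alternatives changed the ratios' source, the offset, the normalisation, the filter, outlier spots, the probe rule, the dye orientation, the dye term, the replicate block, the software version and the replicates used.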

Additional observations from a re-analysis of the deposited data

How the results depend on the processing

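All 25 solute carriers that passed kept their direction under every alternative in which they were tested. The counts of solute carriers called higher and lower, 11 and 14, stayed within 1.5 times under the deposited log ratios, both other offsets, both other filters, kept outlier spots, the mean of all probes and either dye orientation alone. With median centring 7 were called higher, and with scaling between arrays 6; of the 25 genes, 16 and 19 passed under these settings. With 6 arrays, a dye term and the replicate as a random block, a fit whose residual degrees of freedom count arrays rather than replicates, 21 solute carriers were called higher, and 1949 features higher and 2298 lower, against 1091 and 1337. A batch term for the software version, which fits an effect to replicate 3, gave counts of 25 and 22 solute carriers and of 2568 and 2725 features. When the channels were fitted as unpaired samples, that is without the replicate block, 1 solute carrier was called higher (Slc29a1) and 5 lower (Slc22a4, Slc6a4, Slc2a5, Slc16a9 and Slc16a3), and of all features 280 and 275; Slc6a6 then had an adjusted p of 0.0609. Leaving out 1 replicate gave 0 to 20 solute carriers higher and 0 to 22 lower, and 0 to 2043 and 0 to 2152 of all features; without replicate 1, no feature passed by limma and 4627 had an unadjusted p under 0.05. The median change of the solute carriers, 0.027, was 0.052 on the deposited log ratios, 0.050 with an offset of 0, 0.045 with an offset of 10, 0.051 with median centring, 0.041 with CD34+ in Cy5 only and 0.019 with CD34+ in Cy3 only, and 0.025 to 0.039 with a replicate left out. The causes were not tested. The signal over background limits the dim genes, whose changes the offset compresses.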

Other observations

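Another 29 probes without a gene symbol had a description that names a solute carrier, and 28 of them were tested. Of these 1 was higher and 3 were lower in CD34+ cells. Over all features 5.46% were higher and 6.69% lower. The probe described as similar to the exchanger of sodium, potassium and calcium, member 3 of solute carrier family 24, had intensities of 348, 268 and 367 in CD34+ cells, against 1232, 988 and 748 in CD34- cells. It fell by 1.58 ± 0.48 (SD, n = 3, limma adjusted p 0.0225) and was lower on 6 of 6 arrays. A probe for a calcium-binding mitochondrial carrier of family 25 had 98.5, 89.0 and 101 in CD34+ cells, against 178, 127 and 153 in CD34- cells, and fell by 0.65 ± 0.18 (adjusted p 0.0228). A probe described as similar to a facilitated glucose transporter of family 2 fell by 0.45 ± 0.15 (adjusted p 0.0350), and a probe for the Graves disease carrier, a mitochondrial protein, rose by 0.31 ± 0.07 (adjusted p 0.0350). These probes were chosen after their values were seen, and they are not counted among the 167 genes.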
